A study of Homo sapiens with 8 samples.

Results

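This account covers 37 genes of DNA replication and of the passage from G1 into S phase, of 11963 genes that had a value on 8 microarrays of human cancer cells. The 37 genes were listed by name, and each was read from the probe set that carries its symbol alone and has the highest mean intensity over the 8 arrays. All 37 had such a probe set. The genes were grouped by role as 10 origin licensing genes, 3 genes of origin firing, 11 genes of the replication fork, 5 of nucleotide supply and uracil removal, 2 of chromatin assembly and 6 of G1/S control.

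HT29 is an established line from a colorectal cancer and Colo357 an established line from a pancreatic cancer. The study lowered or bound CD24, a small glycosylated protein anchored in the outer cell membrane. Each line was profiled untreated and after 72 h with SWA11, a monoclonal antibody to CD24, used at a dilution of 1 to 40, with 1 array for each of these 4 conditions. HT29 cells were also profiled as single clones without antibody: 1 clone with a vector expressing an shRNA against GFP, 1 clone with 1 vector expressing an shRNA against CD24, and 2 clones, called G and E in the labels, with 2 such vectors. An shRNA is a short hairpin RNA that directs the breakdown of a matching transcript. Each clone carries its own history as well as its vector, and the control arm for the antibody is untreated cells. The labels do not say whether any of the 8 arrays came from separate cultures, and p-values measure the spread between these arrays only.

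Before S phase, the origin recognition complex with CDC6 and CDT1 loads the ring of MCM2 to MCM7 onto DNA, and geminin (GMNN) blocks CDT1 afterwards so that no origin is loaded again. Cyclin E with CDK2, and the kinase CDC7, then start the loaded rings, CDC45 and the GINS complex join them, and polymerases alpha, delta and epsilon copy the DNA with PCNA as the sliding clamp and RFC as its loader. Many of these genes are known targets of E2F transcription factors, which the retinoblastoma protein holds in check until G1 cyclins and their kinases release them. Cultured lines that divide quickly keep these genes on, and their transcripts are widely used as a sign of cycling cells.

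Promoter sequences are shown for 6 of the genes, which are named in the results below and were picked among those with the letters of an E2F motif. The windows came from RefSeq promoters of GRCh38.p14, in which 32 of the 37 genes had an entry of 250 bases before to 50 bases after a start. The others were MCM4, MCM5, CCNE2, CDK2 and RPA3. The motif was searched on both strands as TTTCGCGC, TTTGGCGC, TTTCCCGC or TTTGCCGC, spellings that can overlap each other on opposite strands. Each sequence below covers the 160 bases before a start of the gene, 5′ to 3′ on the gene's strand, with the matches in capitals. GMNN had 2 windows, and only the one that held the motif is shown. E2F1 lies at chr20:33686386-33686545 and CDC25A at chr3:48188418-48188577, both on the minus strand. TYMS lies at chr18:657493-657652, GMNN at chr6:24775253-24775412 and POLA1 at chrX:24693758-24693917, all on the plus strand, and MCM6 lies at chr2:135876444-135876603 on the minus strand.
E2F1: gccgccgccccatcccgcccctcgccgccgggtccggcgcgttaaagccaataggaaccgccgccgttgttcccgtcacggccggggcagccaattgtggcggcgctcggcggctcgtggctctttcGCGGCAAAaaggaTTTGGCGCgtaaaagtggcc
CDC25A: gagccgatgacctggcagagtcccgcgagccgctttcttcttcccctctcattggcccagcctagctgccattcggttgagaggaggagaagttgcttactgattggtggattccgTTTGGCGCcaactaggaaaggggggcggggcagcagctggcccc
TYMS: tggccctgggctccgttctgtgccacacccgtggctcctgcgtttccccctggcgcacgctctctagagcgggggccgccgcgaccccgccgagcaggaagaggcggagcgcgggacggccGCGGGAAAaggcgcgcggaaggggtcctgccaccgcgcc
GMNN: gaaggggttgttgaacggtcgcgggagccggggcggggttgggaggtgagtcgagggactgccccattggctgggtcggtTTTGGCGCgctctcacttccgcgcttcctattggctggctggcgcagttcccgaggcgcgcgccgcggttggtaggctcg
POLA1: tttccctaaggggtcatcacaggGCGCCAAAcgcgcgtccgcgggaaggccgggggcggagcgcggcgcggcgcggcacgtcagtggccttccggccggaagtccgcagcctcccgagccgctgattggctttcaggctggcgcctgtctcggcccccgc
MCM6: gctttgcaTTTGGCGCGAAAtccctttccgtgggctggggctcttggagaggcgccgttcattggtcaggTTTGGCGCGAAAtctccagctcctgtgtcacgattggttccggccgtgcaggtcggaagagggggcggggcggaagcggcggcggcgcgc

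The E2F motif stood in at least 1 window of 18 of the 32 genes (56.2%), against 1090 of all 27305 genes of the promoter table (3.99%). Counted by window, 18 of 45 windows of these genes (40.0%) and 1164 of all 35116 windows (3.31%) held it. The CCAAT motif, searched as CCAAT on both strands, stood in 20 of the 32 genes (62.5%) and in 39.7% of all genes. A match is a description of these letters and not a binding site. Besides the 6 genes shown, the E2F motif stood in CDC6, CDT1, MCM2, MCM3, MCM7, GINS1, CDC7, POLE2, PCNA, RFC3, LIG1 and UNG.

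The values are Affymetrix MAS5 probe set intensities on a linear scale, and the mean trimmed by 2% at each end was 250.1 on each array. Intensities of different probe sets are not comparable, so levels are compared only between arrays and never between genes. Differences are on the scale log2(intensity + 10), on which 1 is a 2-fold change, with smaller values than the true change for dim genes. CD24 itself, on its brightest probe set, read 6425 in untreated HT29, 7363 in the GFP clone and 2039 in untreated Colo357. It read 558 in the clone with 1 vector, 172 in clone G and 596 in clone E. Another CD24 probe set read 2105 in untreated HT29, 597 with 1 vector, 1062 in clone G and 594 in clone E. The array of clone G stood apart in its RNA controls: its ratio of 3′ to 5′ probe sets of ACTB was 1.77 against 1.06 to 1.17 on the others, and its 18S probe set read 435 against 14.7 to 48.0. Array medians ran from 32.4 in clone G to 63.1 in the GFP clone. HT29 arrays had the epithelial marker EPCAM and the intestinal marker KRT20. LGALS4 (4582 untreated, 5626 treated) and VIL1 (439 and 1408) were also present in uncloned HT29, but CDX1, CDX2, CDH17 and GPA33 were at or below 33.9 on all HT29 arrays. Colo357 had KRT7 (5468 untreated) and MUC1 (1815) but little ONECUT1 (12.1) or PDX1 (14.6). Of the other pancreatic duct markers, KRT19 was higher in untreated Colo357 than in untreated HT29 (7692 against 3780). SOX9 (394 against 1362) and GATA6 (83.6 against 463.0) were lower. VIL1 also read 1123.5 in untreated Colo357, above untreated HT29. Summed leukocyte markers were at most 137 and fibroblast markers at most 249 on any array.

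**Figure D1:**
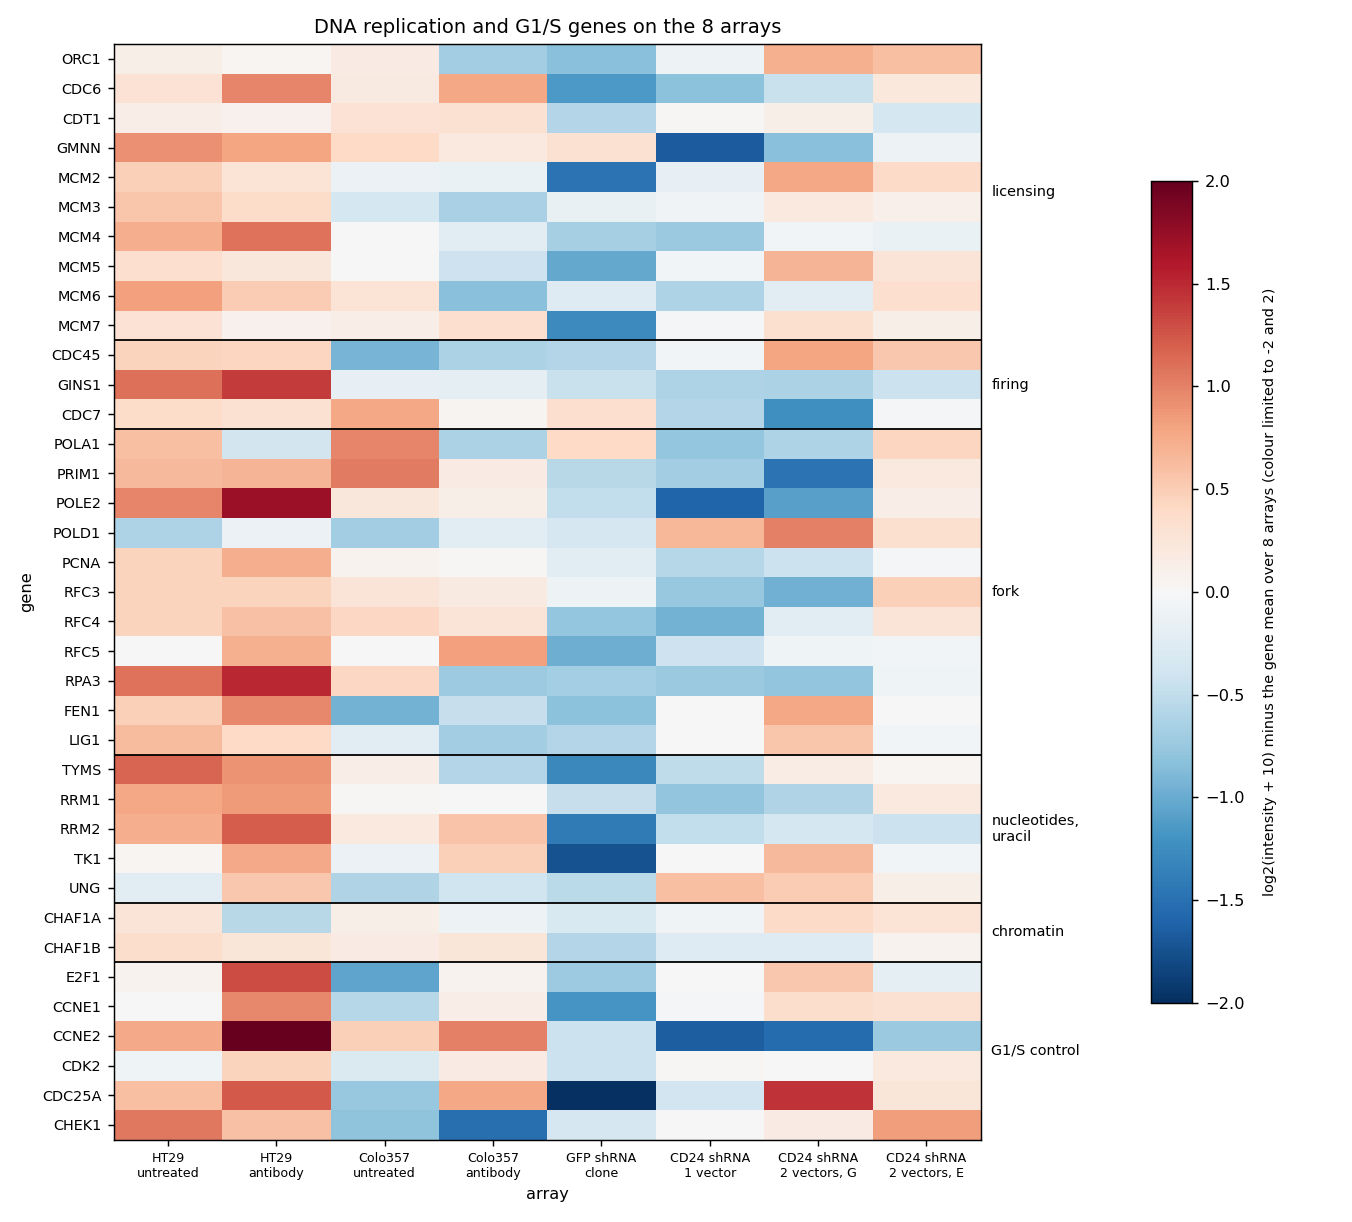
Each cell is the log2(intensity + 10) of 1 gene (rows, by role) on 1 array (columns) minus that gene's mean over the 8 arrays, with colour limited to -2 and 2. The column of the GFP clone is mostly blue and those of HT29 mostly red: the GFP clone was lowest of the 5 untreated HT29 arrays for 22 of the 36 genes above the filter, against 19.8% of all genes.

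Over the 8 arrays the highest intensity of a gene was between 1.85 and 41.8 times its lowest, with a median of 3.60. CDK2 varied least, from 505 in the GFP clone to 936 in antibody-treated HT29, followed by CDT1 (1.90-fold) and CHAF1A (1.97-fold). CDC25A (41.8-fold), CCNE2 (26.9-fold) and POLE2 (13.2-fold) varied most, and each of these had its lowest value near the floor of the arrays. The sliding clamp PCNA read 2885 in untreated HT29, 3506 with antibody, 2236 and 2149.5 in Colo357, 1831 with the GFP shRNA, 1417 with 1 CD24 vector, 1561 in clone G and 2054 in clone E, a 2.47-fold span. Among the 6 HT29 arrays, the lowest value of the 36 genes above the filter fell on the GFP clone for 21 (17.2% of all genes). It fell on the clone with 1 vector for 8 (17.1%). The highest fell on antibody-treated HT29 for 16 (14.6%), on untreated HT29 for 10 (15.4%) and on clone G for 8 (22.9%). CCNE2 read 94.5 in parental HT29 and 35.6, 9.50, 11.2 and 27.0 in the 4 clones, all below the parental array.

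Of the comparisons made, the one with the median farthest from 0 set the clone with the GFP shRNA, the study's vector control, against untreated parental HT29. In that clone 36 of the 37 genes were lower than in parental cells, with a median difference of -1.20 against 0.09 over all 6696 genes compared. Of the 37, 22 were lower by 2-fold or more and 0 were higher by that much, where 7.11% of all genes were lower and 14.5% higher by 2-fold. Each side is 1 array, so these differences have no error and no test. CDC25A, the phosphatase that activates CDK2, read 296 in parental cells and 12.9 in the GFP clone, a log2 difference of -3.74. That value lies near the floor of the array, and it was -2.46 with 50 added in place of 10 and -4.42 with 1 added. The other CDC25A probe set read 162 in parental cells and 39.8 in the GFP clone (-1.79).

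All 5 nucleotide supply genes were lower in the GFP clone, with a median of -1.78. TYMS, thymidylate synthase, went from 4164 to 756 (-2.45). RRM2, the regulated subunit of ribonucleotide reductase, went from 4054 to 914 (-2.14). Thymidine kinase TK1 read 1669 in parental cells and 480.2 in the GFP clone (-1.78). Among these 5 genes UNG, which removes uracil from DNA, differed least (-0.32).

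The whole MCM ring read low in the GFP clone, with all of MCM2 to MCM7 lower and a median of -1.37. MCM2 read 3332 in parental cells and 862 in the GFP clone, the widest gap of the ring (-1.94). MCM7 read 3705 and 1247 (-1.56), and MCM5 1311 and 504 (-1.36). MCM3 was closest to the parental level, with 1801 and 1098 (-0.71). The loading factors were lower too, CDC6 with -1.44, ORC1 with -0.96, CDT1 with -0.73 and the inhibitor GMNN with -0.63.

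At the fork 10 of 11 genes were lower in the GFP clone, 6 of them by 2-fold. RPA3, the smallest subunit of the single-strand binding protein RPA, read 1751 and 505 (-1.77). POLE2, a subunit of polymerase epsilon, read 219 and 72.6 (-1.47). POLD1, the catalytic subunit of polymerase delta, was the 1 gene of the 37 that was higher, at 389 against 321 (0.27). The catalytic subunit of polymerase alpha, POLA1, differed little (108 and 93.2, -0.20), as did CDC7 (119 and 117).

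Other genes of the cycle differed between the same 2 arrays. Of 32 other replication factors above the filter, 29 were lower in the GFP clone, 7 by 2-fold, with a median of -0.79. Among G2/M genes 26 of 29 were lower, with a median of -0.85. Cyclin D1 (CCND1) read 123 in parental cells and 784 in the GFP clone, and the CDK inhibitor CDKN1A 63.1 and 297. MYBL2, an E2F target and partner in cell cycle transcription, read 1465 and 225. The part of these genes in the low values of the 37 was not tested. On arrays of bulk RNA, fewer cells in S phase and less RNA per cell cannot be told apart, and the clone cannot be told apart from its vector.

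Against parental HT29 and the GFP clone together, the 3 CD24 shRNA clones had 18 of 36 genes higher and 18 lower, with a median of 0.03 against 0.04 over all 6752 genes tested. CCNE2 was below the filter here. No gene of the 36 passed adjusted p 0.05 in limma, a test across all genes with a shared estimate of spread. No gene of all 6752 passed either (0.0% in each direction), and without adjustment p was under 0.05 for 430 genes higher (6.37%) and 922 lower (13.7%). Leaving out 1 array, calls over all genes were 9 higher and 584 lower without clone E, 75 and 13 without the GFP clone and 2 and 0 without the clone with 1 vector, with 0 of the 36 among them. This comparison, the GFP clone's and that of all 4 clones share the parental array. Of the 36, POLD1 was higher and GMNN lower at that unadjusted level.

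The median of the group took a different sign with each control. With the GFP clone as sole control the CD24 clones were higher in 28 of 36 genes (median 0.60), and with parental HT29 as sole control lower in 29 of 36 (median -0.49). The medians over all genes were -0.05 and 0.05 in those comparisons. CDC25A shows the span: it read 144 with 1 vector, 539 in clone G and 226 in clone E, between or above controls of 12.9 and 296. Its log2 difference was 1.70 ± 1.02 (SE, 3 against 2 arrays; limma adjusted p = 0.364), and -0.17 against parental HT29 alone. On the other CDC25A probe set the difference against both controls was 0.08. MCM2 likewise read 2143, 4109.5 and 3132, with a difference of 0.83 against both controls (limma adjusted p = 0.441) and -0.14 against the parental array.

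5 genes had the 3 CD24 clones on one side of both controls. POLD1 was higher, at 794, 1009 and 622 against 321 in parental cells and 389 in the GFP clone (1.14 ± 0.38 SE, limma adjusted p = 0.213). UNG read 1435, 1356 and 1038 against 818 and 654 (0.78 ± 0.37 SE, limma adjusted p = 0.277). CDK2 was higher by 0.32, with 692, 680.5 and 783 against 647 and 505. These 3 genes compare with 20.1% of all genes whose arrays were apart in that direction.

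On the lower side stood GMNN and CDC7, where 19.9% of all genes were apart. GMNN read 128, 237 and 396 in the CD24 clones against 824 and 530.2 in the controls (-1.49 ± 0.52 SE, limma adjusted p = 0.214). CDC7 read 57.0, 32.8 and 88.4 against 119 and 117 (-0.97 ± 0.44 SE, limma adjusted p = 0.264). Neither gene passed the test, and for both the clone with 2 vectors called E was nearest to the controls. The CDC7 value of 32.8 in clone G lies near the median of that array (32.4). POLE2 read 28.3, 45.1 and 118 against 219 and 72.6, so that clone E lay between the controls (-1.09, limma adjusted p = 0.349). GINS1, a subunit of the GINS complex, read 338, 332 and 384, close to the 378 of the GFP clone and far from the 1128 of parental cells. TK1 read 1604, 2556 and 1564, near or above parental cells (1669) and well above the GFP clone (480.2).

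Some genes of the group have other probe sets, and these differed for CDK2 in clone G. A second CDK2 probe set read 47.4 in clone G, 453 with 1 vector and 478 in clone E, against 310 in parental cells and 253 in the GFP clone. The 2 other CDK2 probe sets had log2 differences of -0.30 and -0.63 in this comparison, opposite in sign to the one used. The second RRM1 probe set read 101 in clone G and 494 in clone E, where the one used read 512 and 892. The dimmest of 4 MCM4 probe sets read 36.4 in clone G and 190.2 in clone E, where the one used read 645 and 614. Clone G is the array with the raised ACTB ratio and 18S value given above, and their part in these readings was not tested. Without clone G the median over the 36 genes was 0.05 against both controls, and -0.70 for the clones against parental HT29.

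Among other genes of the cycle no member of the 3 lists passed in the CD24 clones (0 of 32 other replication factors, 0 of 24 other G1/S regulators and 0 of 29 G2/M genes). Their medians were -0.01, -0.46 and -0.23, and unadjusted p was under 0.05 for 6 replication factors, all lower, for 2 higher and 5 lower G1/S regulators and for 2 higher and 9 lower G2/M genes. The retinoblastoma gene RB1 read 31.2 with 1 vector, 37.3 in clone G and 99.4 in clone E, against 184 in parental cells and 113 in the GFP clone. CDKN1B, an inhibitor of cyclin E with CDK2, read 169, 139 and 330 against 361 and 397. CDKN1A read 477, 1017 and 505 against 63.1 and 297.

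Taken as 4 clones against the 1 parental array, 33 of 36 genes were lower, with a median of -0.70 against 0.02 over all genes. No gene of the group passed adjusted p 0.05, in a comparison where limma called 0.104% of all genes higher and 0.0148% lower. Unadjusted, p was under 0.05 for 5 of the 36 lower and 0 higher, against 2.77% and 9.17% of all genes. By 2-fold, 11 of the 36 were lower and 1 was higher, against 12.8% and 12.9% of all genes. For 21 genes the parental array lay above all 4 clones, against 22.8% of all genes, and for POLD1 it lay below them (30.3%). The lone parental array was assumed to vary as the clones do.

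GINS1 had the smallest p in this comparison. Its 4 clones read 378, 338, 332 and 384 against 1128 in parental HT29 (-1.63 ± 0.40 SE, limma adjusted p = 0.194). RPA3 read 505, 486, 469 and 768 against 1751 (-1.66 ± 0.46 SE, limma adjusted p = 0.227). Both genes had clones close together and far below the parental array. With the antibody-treated HT29 array added to the parental side, RPA3 (-1.87, limma adjusted p = 0.029) and GINS1 (-1.78, limma adjusted p = 0.0204) passed. The added array is of treated cells and not a replicate of the parental one, and it read higher in both genes (2335 for RPA3 and 1392 for GINS1). In that setting 51 of all 6753 genes were called lower and 164 higher. Over the 12 alternatives the adjusted p ran from 0.029 to 0.472 for RPA3 and from 0.0204 to 0.433 for GINS1.

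TYMS read 756, 1304, 2058 and 1906 in the 4 clones against 4164 (-1.56 ± 0.63 SE, limma adjusted p = 0.398). RRM2 read 914, 1749, 1911 and 1808 against 4054 (-1.40 ± 0.54 SE, limma adjusted p = 0.378). On the probe sets used, the GFP clone was lowest in both genes and the 3 CD24 clones lay between it and parental cells. The other RRM2 probe set read 577 in the GFP clone and 511 with 1 vector, so that the GFP clone was not lowest there. It read 710 in clone G and 931 in clone E, against 2119 in parental cells. RRM1, the large subunit of the same reductase, read 565, 448, 512 and 892 against 1344 (-1.19). Between the clones the group differed: clone G was below parental HT29 in 22 of 36 genes, clone E in 28 and the clone with 1 vector in 33, where 47.4%, 46.6% and 48.5% of all genes were below. By 2-fold the clone with 1 vector was below in 16 (22.3% of all genes), clone G in 12 (23.7%) and clone E in 5 (6.25%), which were GINS1, GMNN, RPA3, RRM2 and TYMS.

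**Figure D2:**
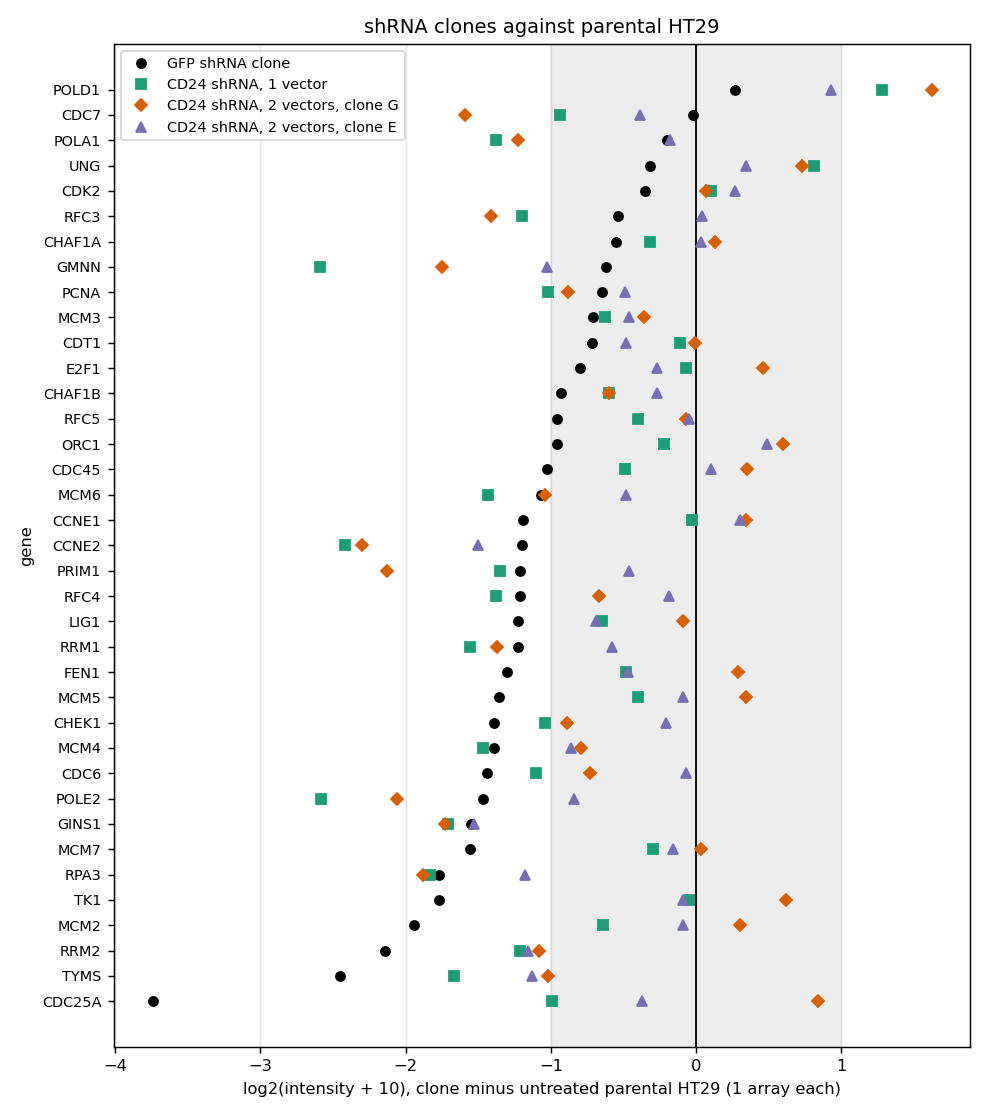
Points give log2(intensity + 10) of each clone minus untreated parental HT29 for the 37 genes, ordered by the GFP clone, with 1 array per point and the shaded band marking differences under 2-fold. Black points of the GFP clone reach -3.74 at CDC25A, while most CD24 clones lie to their right, except for genes such as GMNN, CDC7 and POLE2.

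With 2 vectors, 32 of 36 genes were higher than with 1 vector, with a median of 0.37 against 0.04 over all genes. By 2-fold, CDC25A (1.22), GMNN (1.20) and POLE2 (1.13) were higher and 0 were lower, against 6.14% and 3.44% of all 6780 genes. With clone E alone on the side of 2 vectors the count was 6, and with clone G alone it was 1. On the other CDC25A probe set the difference of 2 vectors from 1 was 0.50. RFC4, a subunit of the clamp loader, read 207 with 1 vector and 346 and 485 with 2 (0.95). For 24 genes both clones with 2 vectors lay above the clone with 1 (30.2% of all genes), and for UNG both lay below (28.6%). The 1-vector side is 1 clone, and these differences were counted by size and not tested.

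After the anti-CD24 antibody the group as a whole had no common direction. Over both lines, 19 of 37 genes were higher and 18 lower, with a median of 0.01 against -0.02 over all 6784 genes tested. With the line as a block, 0 of the 37 passed adjusted p 0.05 in limma, where 1.14% of all genes were higher and 2.42% lower at that level. Unadjusted, p was under 0.05 for 5 genes higher (E2F1, CDC25A, CCNE2, CCNE1 and RFC5) and 1 lower (POLA1), against 9.01% and 14.1% of all genes. The fit has 1 residual degree of freedom and rests on the spread of all genes, and after quantile normalization no gene of all 6785 passed.

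The 6 G1/S control genes had a median of 0.88, with 5 of 6 higher in both lines. E2F1 read 176 untreated and 427 with antibody in HT29, and 75.9 and 177 in Colo357 (1.18 ± 0.32 SE, limma adjusted p = 0.0694). CCNE1, a cyclin E gene, read 333 and 656 in HT29 and 221 and 364 in Colo357 (0.83 ± 0.32 SE, limma adjusted p = 0.164). The other cyclin E gene, CCNE2, read 94.5 and 256, and 75.8 and 114 (0.94 ± 0.35 SE, limma adjusted p = 0.142). In all 3 genes the treated array was above the untreated one of the same line.

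CDC25A read 296 untreated and 461 treated in HT29, and 109 and 334 in Colo357 (1.08 ± 0.35 SE, limma adjusted p = 0.108). The other CDC25A probe set was lower in treated HT29, at 162 and 131 (-0.28), and higher in treated Colo357, at 44.8 and 138.5 (1.44). CDK2 was higher by 0.52 in HT29 and 0.45 in Colo357. CHEK1, the checkpoint kinase that restrains CDC25A when replication stalls, went the other way, from 378 to 270.5 and from 97.4 to 56.2 (-0.58 ± 0.32 SE, limma adjusted p = 0.308). None of these 6 genes passed in any of the 8 alternatives.

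Fork genes were split. POLA1 read 108 untreated and 50.1 treated in HT29, and 144 and 40.1 in Colo357, both treated arrays below both untreated ones (-1.30 ± 0.34 SE, limma adjusted p = 0.0608). Both treated values of POLA1 lie near the medians of their arrays (41.0 in HT29 and 50.3 in Colo357). Over the 8 alternatives the adjusted p of POLA1 ran from 0.0601 to 0.541, and that of E2F1 from 0.0693 to 0.524. RFC5, a clamp loader subunit, went from 641 to 1063 and from 650.0 to 1161 (0.77 ± 0.32 SE, limma adjusted p = 0.187). RPA3 was higher in treated HT29 (2335 against 1751) and lower in treated Colo357 (487 against 1087). The primase subunit PRIM1 read 392 and 401 in HT29, and 512 and 276 in Colo357. Neither difference between the lines was tested, since each rests on 1 array per condition.

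The MCM ring had a median of -0.18 over both lines, with 4 of 6 genes lower. MCM4 (0.06) and MCM7 (0.01) were higher by small amounts. Their other probe sets were at -0.37, -0.43 and -0.01 for MCM4 and at -0.09 for MCM7. MCM6 differed most, from 1313 to 1054 in HT29 and from 901 to 408 in Colo357 (-0.72 ± 0.35 SE, limma adjusted p = 0.244). CDC6, the loader, was instead higher, from 476 to 773 and from 439.5 to 669 (0.64, limma adjusted p = 0.263). TK1 went from 1669 to 2746 and from 1498 to 2255 (0.65, limma adjusted p = 0.257). TYMS, another of the nucleotide supply genes, was lower in both lines, with -0.27 in HT29 and -0.72 in Colo357. CHAF1A, the large subunit of the chromatin assembly factor that loads histones behind the fork, went from 292 to 163 and from 264 to 227 (-0.50, limma adjusted p = 0.392). Its other probe sets were at -0.82 and 0.04 over both lines. The latter was lower in treated HT29 (-0.45) and higher in treated Colo357 (0.54).

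Counted in each line alone, 2 genes were higher by 2-fold in treated HT29 (E2F1 and CCNE2) and 0 lower, against 5.04% and 7.43% of all genes. In Colo357, 2 were higher (CDC25A and E2F1) and 3 lower (POLA1, RPA3 and MCM6), against 10.6% and 12.8%. The same direction in both lines was seen for 12 genes higher and 12 lower of 37, near the 32.0% and 36.8% of all genes. With a margin of 0.4 in each line, set after the values were seen, 10 genes were higher in both (11.6% of all genes) and 2 were lower in both (17.6%). The E2F motif stood in 4 of the 10 genes higher in both lines that had a promoter window, and in 8 of the 11 lower in both.

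**Figure D3:**
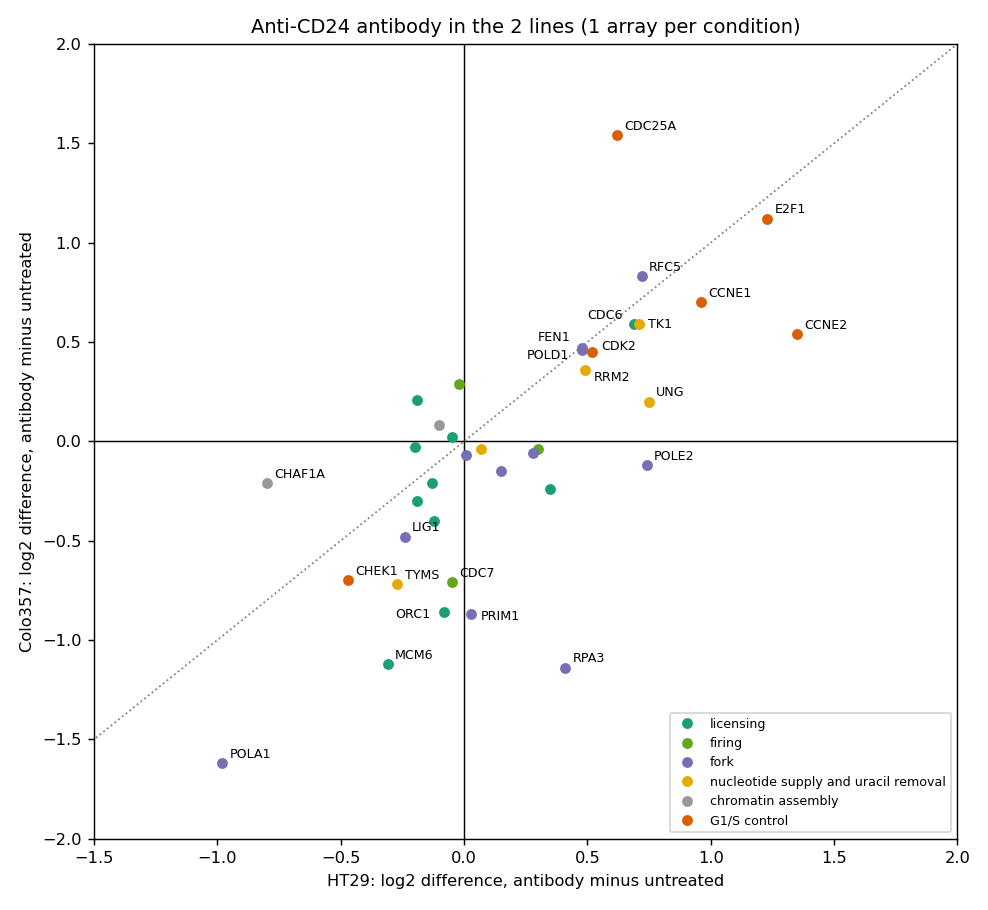
Each point is 1 of the 37 genes, coloured by role, with its log2 difference of antibody minus untreated in HT29 (x axis) and in Colo357 (y axis), 1 array per condition, and the dotted line marks equal differences. The 5 higher G1/S control genes lie in the upper right, from CDK2 to E2F1 and CDC25A, and POLA1 lies at the lower left.

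Genes of the later cycle were measured beside these values. Of 29 G2/M genes, 23 were lower and 6 higher after the antibody, with a median of -0.63, and 4 of the lower and 0 of the higher ones passed adjusted p 0.05. MKI67 fell by 1.96 on the log2 scale (limma adjusted p = 0.0295), from 933 to 358 in HT29 and from 1014 to 162 in Colo357. CENPF (-1.88), HMMR (-1.82) and BUB1B (-1.46) were the others that passed. CDKN1A rose by 2.67 (limma adjusted p = 0.0113), from 63.1 to 377 in HT29 and from 342 to 2687 in Colo357, and CCNG1 fell by 1.89 (limma adjusted p = 0.0398), while the other 24 of the 26 G1/S regulators above the filter did not pass. RB1 read 184 and 157 in HT29 and 280.0 and 125 in Colo357. Of 34 other replication factors, 0 passed, with a median of 0.00. These calls also ended after quantile normalization, with no filter and with all 8 arrays in 1 fit, where no gene of all was called, and the part of these genes in the values of the 37 was not tested.

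Between the lines, 31 of 37 genes were lower in Colo357 than in HT29, with a median of -0.56 against -0.03 over all genes. Of the 37, 8 passed adjusted p 0.05 in limma with treatment as a block, all lower in Colo357, where 8.56% of all 6784 genes were lower and 10.9% higher at that level. These 4 arrays are the ones of the antibody comparison. The 8 genes spread over 4 roles: CDC45 and GINS1 of firing, FEN1, RPA3 and POLE2 of the fork, TYMS of nucleotide supply, and CHEK1 and E2F1 of G1/S control. The call of CHEK1 held in all 8 alternatives, but 1 gene was called with all 8 arrays in 1 fit, 3 with no filter and 6 after quantile normalization. Over all genes, 142 of 6782, 379 of 11963 and 504 of 6785 were called lower in these settings.

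CHEK1 read 97.4 and 56.2 in Colo357 against 378 and 270.5 in HT29, untreated and treated (-1.97 ± 0.32 SE, 3.91-fold lower, limma adjusted p = 0.00175). FEN1, the flap endonuclease that trims Okazaki fragments, read 599 and 834 against 1620.3 and 2257 (-1.42 ± 0.32 SE, limma adjusted p = 0.0112). GINS1 read 465 and 451 against 1128 and 1392 (-1.43 ± 0.33 SE, limma adjusted p = 0.0116). The arrays of the lines did not overlap in any of these 3 genes.

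CDC45, the helicase partner of GINS, read 297 and 365 in Colo357 against 784 and 772 in HT29 (-1.22 ± 0.32 SE, limma adjusted p = 0.0256). TYMS read 2041 and 1232 against 4164 and 3455 (-1.25 ± 0.33 SE, limma adjusted p = 0.0235). RPA3 read 1087 and 487 against 1751 and 2335, with a wide gap within Colo357 (-1.46 ± 0.40 SE, limma adjusted p = 0.0293). POLE2 read 127 and 116 against 219 and 373 (-1.17 ± 0.35 SE, limma adjusted p = 0.0394). E2F1 overlapped between the lines, since treated Colo357 (177) reached untreated HT29 (176), but it was lower within each treatment (-1.17 ± 0.32 SE, limma adjusted p = 0.0284).

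Just outside the threshold were LIG1 (-0.98, limma adjusted p = 0.0586), MCM4 (-1.01, limma adjusted p = 0.0595) and MCM3 (-0.97, limma adjusted p = 0.0612). The highest differences of the group were CDT1 (0.18), with 414 and 419 against 371 and 359, and CHAF1A (0.16). CHAF1A was at 0.28 as the mean of its probe sets and at 0.73 without probe sets of the _x_at type, above CDT1 (0.18) in both. For 20 genes both Colo357 arrays lay below both HT29 arrays (26.7% of all genes), and for CDT1 above (23.6%). Among 34 other replication factors 27 were lower in Colo357, and 4 of these and 0 of the 7 higher ones passed adjusted p 0.05: SLBP (-1.94, limma adjusted p = 0.00187), DSCC1, POLA2 and GINS2. Among 26 other G1/S regulators 16 were lower and 10 higher in Colo357, and 5 of the lower and 3 of the higher ones passed. Of the higher ones, CCND1 differed by 3.34 (limma adjusted p = 3.94e-05), at 1329 and 1756 in Colo357 against 123 and 164 in HT29. The G2/M genes had 1 gene called in each direction, TOP2A higher and PLK1 lower, of 29.

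**Figure D4:**
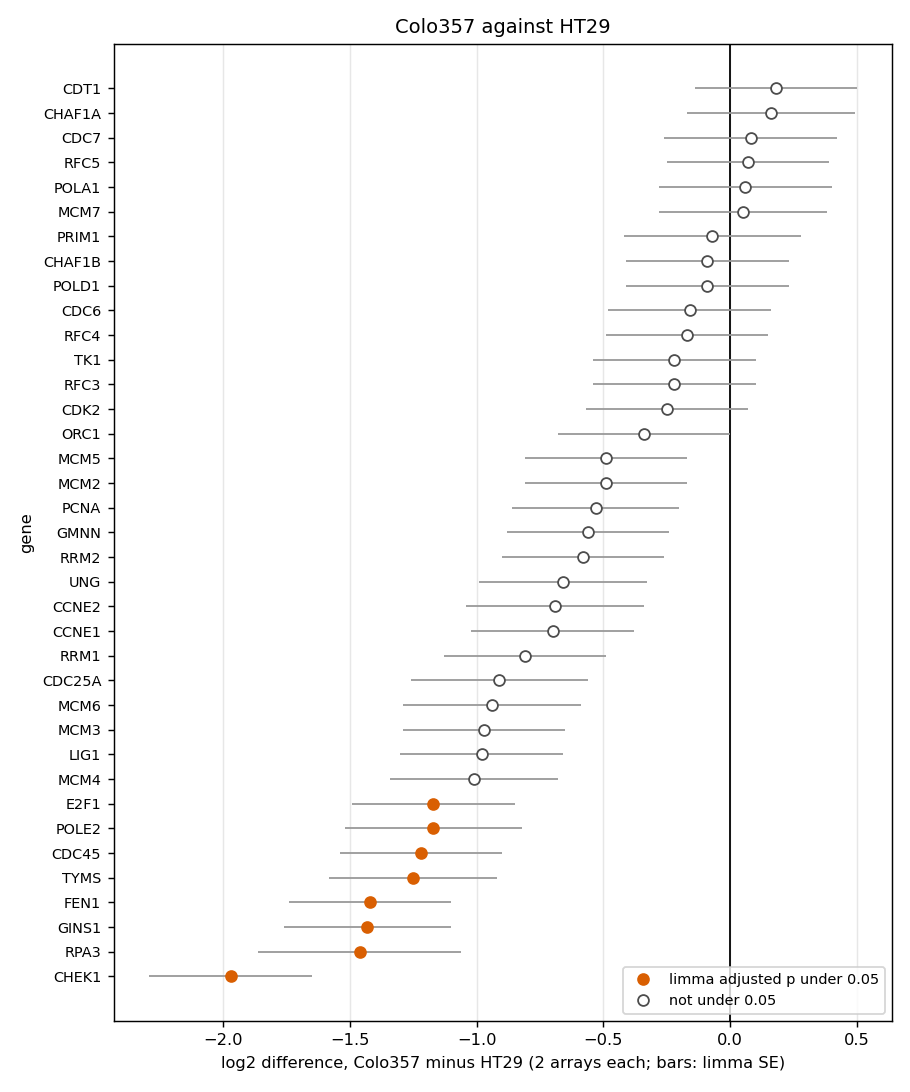
Points give the log2 difference of Colo357 minus HT29 over both treatments for each of the 37 genes, with bars of 1 SE from limma. The 8 genes past adjusted p 0.05 lie between -1.97 (CHEK1) and -1.17, and CDT1 at 0.18 is the highest.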

How the data were processed

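Each of the 8 Affymetrix human arrays was hybridised with RNA from 1 cell sample. The deposited values are linear probe set intensity values that the authors made with MAS5, per the submitters' processing notes; the version and settings were not given in the sources used here. Arrays were used as deposited, without further scaling. Of 22277 probe sets, 62 were controls, 19064 had 1 symbol in the platform annotation, 1043 several and 2108 none; 19052 were updated through Entrez IDs in the RefSeq table of GRCh38.p14. A gene was its single-symbol probe set of highest mean intensity. A comparison kept genes whose mean log2(intensity + 10) over its arrays exceeded the median over non-control probe sets.

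Tests were two-sided and used limma 3.58.1 (lmFit, eBayes) in R 4.3.3, with Benjamini-Hochberg adjustment over all genes kept. Residual degrees of freedom were 1 in the antibody and line fits and 3 in the clone fits. Comparisons with 1 array in an arm were counted at 2-fold, apart from the 4 clones against parental HT29. The fits were tested on simulated data. Every gene of the group could be named; full values are given for those past adjusted p 0.05 and for the 4 with the largest difference in each direction of a comparison. Of the other lists, CDKN1A, CDKN1B, CCND1, RB1 and up to 3 members at 2-fold or more were eligible, with called genes added after their values were seen. The genes, lists and tests were chosen with earlier results of these data known. Alternatives changed the pseudocount (1 or 50), normalization (quantile), filter, probe set rule, controls and arrays; choosing the probe set by mean log2 value was added after seeing the data. Precision is limited by how few arrays each group has.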

Additional observations from a re-analysis of the deposited data

Results flagged for a closer look

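The antibody difference had opposite signs in the lines for 9 genes higher in HT29 and lower in Colo357, and for 4 genes the other way round, of 37. RPA3 and PRIM1 are given here because they were also among the 4 genes of the group with the lowest antibody difference in Colo357. For RPA3 the log2 difference was 0.41 in HT29 and -1.14 in Colo357, a gap of 1.56. For PRIM1 it was 0.03 in HT29 and -0.87 in Colo357, a gap of 0.90. These rest on 1 array per condition, and the difference between the lines was not tested.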

How the results depend on the processing

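Among 583 values recomputed under another setting, 544 kept their direction and side of the threshold or stayed near the value given. In tested comparisons the size of a difference was not part of this count, and most genes named there had not passed to begin with. In the CD24 clones TK1 ran from 0.15 to 1.93 and GINS1 from -1.66 to -0.11, and these values count as kept. Changes of sign numbered 10, counted only in tested comparisons or where the difference was 2-fold or more. Sign changes of smaller, untested differences were not in that count. The sign of 2 genes in the CD24 clones turned with the controls: without the GFP clone, which is the same as parental HT29 as the only control, CDC25A was -0.17 and MCM2 -0.14, and over all arrays left out in turn they ran from -0.17 to 3.57 and from -0.14 to 1.80. CDK2 in the 4 clones, at 0.02, was -0.01 after quantile normalization, -0.21 as the mean of its probe sets, between -0.06 (without clone E) and 0.15 (without the GFP clone) over the clones left out in turn, and -0.24 with antibody-treated HT29 added. Between the lines CDC7 turned to -0.05 after quantile normalization and RFC5 to -0.18 as the mean of its probe sets. The 4 clones had 2 genes called instead of 0 with antibody-treated HT29 added. In that setting 51 of all 6753 genes were called lower and 164 higher. Between the lines 3 genes were called instead of 8 with no filter and 1 with all 8 arrays in 1 fit. Over all genes, 379 of 11963 and 142 of 6782 were called lower there, against 581 of 6784 in the main setting. In the comparison of 2 vectors with 1, leaving out a clone with 2 vectors gave between 1 and 6 genes at 2-fold instead of 3. No gene of the group was called for the antibody or for the CD24 clones under any alternative. Causes were not tested. No paired analysis was possible because no 2 groups share 2 or more replicate numbers that name a pairing, and the cell line is already a block in the antibody fit. With 1 array in most groups, a gene that did not pass may still differ.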
